A study of Mus musculus with 8 samples.

Results

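Lymphatic endothelial genes were followed in mouse lung after surgery, through 5 marker genes of lymphatic vessels, Prox1, Flt4, Lyve1, Mmrn1 and Reln. All 5 listed genes were on the array, out of 18193 genes with a probe set that carries a single gene symbol. Together they have 11 such probe sets, and each gene was represented by the probe set chosen by its mean log2 level over the 8 arrays (the highest), with the others as a check. That mean level is the measured value behind the choice, so levels are given as a description. No difference between surgeries or time points enters the rule. Lung RNA of female C57BL/6 mice, 10 to 12 weeks old, was measured after left unilateral pneumonectomy (PNY, removal of the left lung) or sham thoracotomy (SHAM, in which the chest was opened and the lung left in place). Lungs were taken 6 hours after surgery or 1, 3 or 7 days after it. There was 1 array for each surgery at each time point, and equal amounts of tissue from 8 mice were pooled on it. All mice, SHAM included, were anesthetized with ketamine and xylazine, given ampicillin, intubated and ventilated, and treated with buprenorphine for pain. Lungs were perfused through the pulmonary vessels before RNA was taken, and no group without surgery was analysed here.

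Lymphatic capillaries drain fluid, lymphocytes and antigen-presenting cells from the lung, where they run beside bronchi and blood vessels and in the pleura. Their endothelium is specified from venous endothelium by the transcription factor Prox1 and grows in response to VEGF-C and VEGF-D, which act through the receptor tyrosine kinase Flt4. Lyve1, a receptor for hyaluronan, marks the thin-walled initial capillaries and also a population of tissue macrophages, and so is not exclusive to lymphatic vessels.

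The values are log2 expression values by RMA, a method that corrects background, normalizes the arrays to each other and gives 1 value to each probe set. Array medians lay between 5.90 and 5.95. As a check of the tissue, Sftpc, the surfactant protein C gene of alveolar type II cells, was between 14.65 and 14.69 on all 8 arrays. The PNY array of 1 day stood apart in thymocyte genes, with Rag1 at 9.60 against 2.56 to 3.62 on the other 7 arrays. In bulk lung a lower value can come from fewer cells of a type or from less RNA in each cell, and these cannot be told apart.

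The clearest feature of these genes was the level of Lyve1 at 6 hours. It was 2.46-fold higher than at the later time points in the 2 surgeries together, while Prox1, Flt4, Mmrn1 and Reln did not pass the test for that difference. None of the 5 genes differed between PNY and SHAM by the test, and none passed a fold change of 1.5 at any single time point. Mmrn1 was the one gene of the 5 with PNY above SHAM every time, by a mean of 0.20 on the log2 scale.

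**Figure D1:**
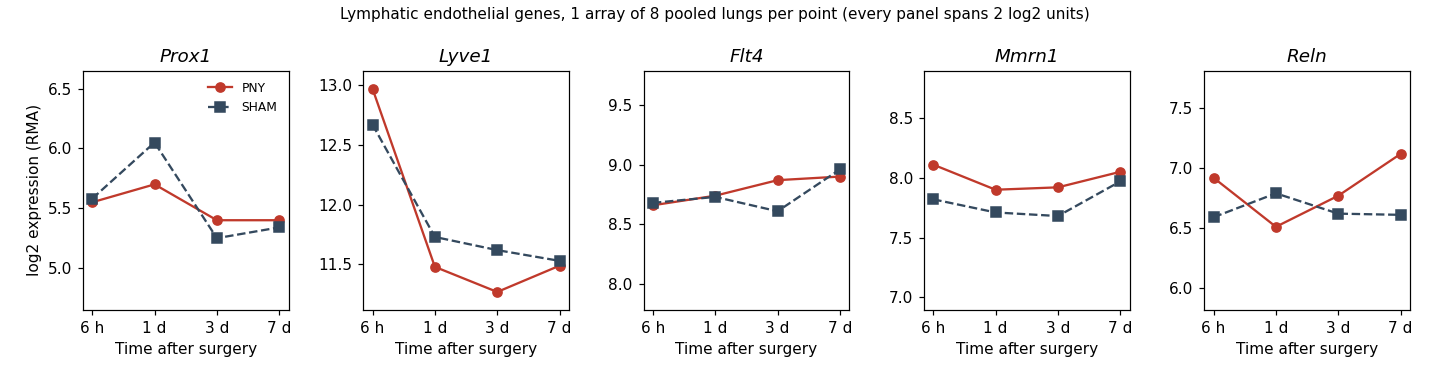
Log2 expression (vertical axis) of Prox1, Lyve1, Flt4, Mmrn1 and Reln against time after surgery, with 1 point for each array (circles and solid lines PNY, squares and broken lines SHAM). Each panel spans the same 2 log2 units but starts at its own level. Lyve1 was at 12.97 and 12.67 at 6 hours and between 11.27 and 11.73 afterwards, and no other gene has a step of that size.

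Prox1, the homeobox factor that gives lymphatic endothelium its identity, was at 5.55 in PNY and 5.58 in SHAM at 6 hours, at 5.70 and 6.05 at 1 day, at 5.40 and 5.25 at 3 days, and at 5.40 and 5.34 at 7 days. The SHAM array of 1 day was the highest, and the 4 arrays of 3 and 7 days lay below the 4 of 6 hours and 1 day without overlap. Its mean of 5.53 was under the median level of all probe sets, 5.92, and its other probe sets were lower still, with means of 3.13 and 2.80. The mean difference of PNY minus SHAM was -0.04 ± 0.22 (SD of the 4 differences), with a 95% confidence interval of -0.41 to 0.33. Prox1 at 3 and 7 days differed from its level at 6 hours and 1 day by -0.37 (95% confidence interval -0.64 to -0.10, limma adjusted p = 0.211), which did not pass the test. Of all 45037 probe sets, 3.99% lay lower at 3 and 7 days without overlap in the same way. The other Prox1 probe sets gave -0.02 and 0.21 for this difference and do not show it.

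Flt4, the growth factor receptor of lymphatic endothelium, was at 8.66 in PNY and 8.68 in SHAM at 6 hours, at 8.74 and 8.73 at 1 day, at 8.87 and 8.61 at 3 days, and at 8.90 and 8.96 at 7 days. It was the steadiest of the 5 genes, with a range of 0.35 over the 8 arrays, and the surgeries overlapped. PNY exceeded SHAM by a mean of 0.05 ± 0.15 (95% confidence interval -0.19 to 0.28), and the 6 hour arrays differed from the later ones by -0.13 (95% confidence interval -0.38 to 0.12, limma adjusted p = 0.55). Its second probe set stayed between 7.92 and 8.12.

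Lyve1, the hyaluronan receptor, was at 12.97 in PNY and 12.67 in SHAM at 6 hours, at 11.48 and 11.73 at 1 day, at 11.27 and 11.62 at 3 days, and at 11.49 and 11.53 at 7 days. The 6 hour arrays were the highest of the 8, and neither overlapped with the 6 later ones. The mean was 12.82 at 6 hours and 11.52 ± 0.16 (SD, n = 6) later. This is a difference of 1.30 with a standard error of 0.13 and a 95% confidence interval of 1.00 to 1.60, and it passed the test over all probe sets (limma adjusted p = 0.00152).

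A second Lyve1 probe set showed the same step. It was at 12.28 in PNY and 12.21 in SHAM at 6 hours and between 10.43 and 11.05 on the later arrays. Its difference of 1.48, or 2.78-fold, passed the test as well (limma adjusted p = 0.00137). Over all probe sets 2.87% were called higher at 6 hours and 4.53% lower, and 1 of the 5 lymphatic genes was called, Lyve1, which was higher. Among the 18193 genes, 48 had a larger rise at 6 hours than Lyve1, 42 of them among the 575 called higher. Falls were not counted here.

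The Lyve1 step was present in each surgery. PNY at 6 hours was 1.56 above the mean of the later PNY arrays, or 2.94-fold, and SHAM at 6 hours was 1.04 above the later SHAM arrays, or 2.06-fold. The step was larger by 0.52 in PNY (95% confidence interval 0.02 to 1.01), but this interaction did not pass over all probe sets (limma adjusted p = 0.999). No probe set did (0% called, with 1962 at an unadjusted p under 0.05), and the interaction was added after the data had been seen. With either 6 hour array left out the other still gave a call, 1.04 without PNY (limma adjusted p = 0.043) and 1.56 without SHAM (limma adjusted p = 0.0192), where the lone array is assumed to vary like the others. Without the PNY array of 1 day, which stood apart in thymocyte genes, the difference was 1.30 (limma adjusted p = 0.0029).

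Between the surgeries Lyve1 went both ways. PNY was higher by 0.30 at 6 hours and lower on the later days, by differences of -0.25 (1 day), -0.35 (3 days) and -0.04 (7 days). The mean difference was -0.08 ± 0.29 (SD of the 4 differences, 95% confidence interval -0.91 to 0.74). With time point as a block, which takes the 6 hour step out of the spread, the interval was -0.36 to 0.19. In the second Lyve1 probe set PNY was higher by only 0.07 at 6 hours. The later differences there were -0.15 (1 day), -0.29 (3 days) and -0.36 (7 days), and the mean over the time points was -0.18.

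Mmrn1, which codes for multimerin 1, a large secreted protein of platelets and endothelium that is enriched in lymphatic endothelium, was at 8.11 in PNY and 7.82 in SHAM at 6 hours, at 7.90 and 7.71 at 1 day, at 7.92 and 7.68 at 3 days, and at 8.05 and 7.97 at 7 days. PNY was the higher of the pair each time, although the ranges of the groups, 7.90 to 8.11 and 7.68 to 7.97, overlapped. The mean was 8.00 ± 0.10 in PNY and 7.80 ± 0.13 in SHAM (SD, n = 4 arrays), a difference of 0.20 or 1.15-fold (95% confidence interval -0.02 to 0.42). It did not pass the test (limma p = 0.076, adjusted p = 1; exact two-sided permutation test over the 70 splits of the arrays, p = 0.0857). Of all probe sets 7.41% had PNY above SHAM at every time point, beside 1 of these 5 genes. With time point as a block the interval was 0.01 to 0.39, which leaves out 0, with a limma adjusted p of 0.901. The second Mmrn1 probe set, with a mean of 2.42, was near the lowest value of the table, 2.00, and was lower in PNY by a difference of -0.05.

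Reln codes for reelin, a secreted glycoprotein best known from the developing brain that lymphatic endothelium also makes. It was at 6.92 in PNY and 6.59 in SHAM at 6 hours, at 6.51 and 6.79 at 1 day, at 6.77 and 6.62 at 3 days, and at 7.12 and 6.61 at 7 days. The PNY array of 7 days was the highest and the PNY array of 1 day the lowest, so the PNY arrays enclosed the SHAM arrays. At 7 days PNY exceeded SHAM by 0.51, or 1.42-fold, the largest difference of any of the 5 genes at a single time point, with 1 array on each side and no test. The mean difference was 0.18 ± 0.34 (95% confidence interval -0.11 to 0.47). Its second probe set, with a mean of 2.87, gave -0.07.

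**Figure D2:**
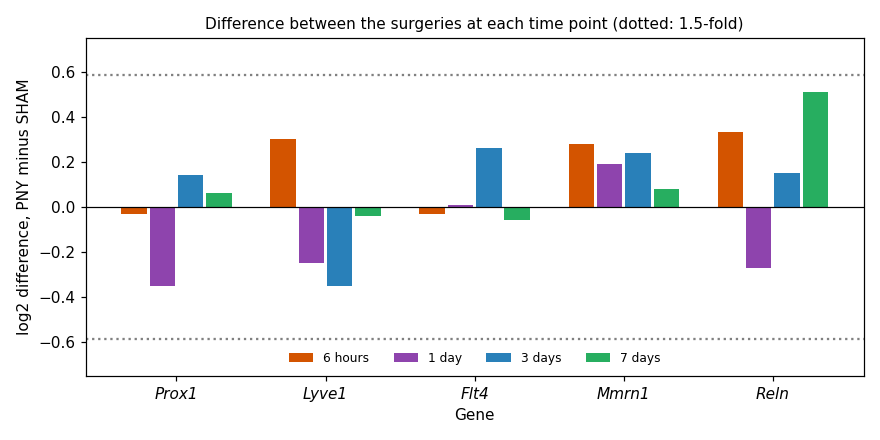
Difference of log2 values, PNY minus SHAM (vertical axis), for each lymphatic gene at each of the 4 time points, with 1 bar for 1 pair of arrays and no error bar because there is no replicate at a time point. The dotted lines mark a fold change of 1.5, which is 0.58 on the log2 scale. No bar reaches them, and only Mmrn1 has all 4 bars above 0.

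Over the 4 time points limma called none of the 5 genes between PNY and SHAM, with an adjusted p of 1 for each. It called 0% of all 45037 probe sets (902 at an unadjusted p under 0.05). The exact permutation test gave p = 0.914 for Prox1, 0.714 for Flt4, 0.743 for Lyve1, 0.0857 for Mmrn1 and 0.257 for Reln, where the smallest p it can give is 0.0286. A mean difference past 1.5-fold, which has no test, was seen in 0.406% of all probe sets and in none of the lymphatic genes. At single time points the share of probe sets past 1.5-fold in either direction was 2.25% for the arrays of 6 hours, 3.78% for those of 1 day, 1.93% for 3 days and 3.64% for 7 days. With time point as a block the 95% confidence interval of PNY minus SHAM was -0.28 to 0.19 for Prox1, -0.16 to 0.25 for Flt4 and -0.12 to 0.48 for Reln, and again none of the 5 was called. The p-values measure the spread between pooled samples of different times, not between mice.

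The course with time was tested for 3 and 7 days against 6 hours and 1 day. None of the 5 genes was called, beside 0.0444% of all probe sets. Lyve1 differed by -0.74 (limma adjusted p = 0.286), Flt4 by 0.13, Mmrn1 by 0.02 and Reln by 0.08. Nor did the difference between the surgeries change with stage for any of them by the test. The change was 0.29 for Prox1, 0.11 for Flt4, -0.22 for Lyve1, -0.08 for Mmrn1 and 0.30 for Reln, and 0% of probe sets were called (1246 at an unadjusted p under 0.05).

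The 5 genes did not move together over the arrays. Pearson's r between pairs of them, over 8 arrays that share the same 4 times, ran from -0.57 for Lyve1 with Flt4 to 0.54 for Mmrn1 with Reln. The genes closest in pattern to each were looked for among the genes above the median level. For Lyve1 these were Il1rap, an interleukin 1 receptor subunit (r = 0.997), Mxd1, a partner of Max (r = 0.99), and Grhl1, an epithelial transcription factor (r = 0.99). Their 6 hour differences of 0.73, 0.73 and 0.78 follow from this choice and are no separate result, and 387 of 12150 genes had an r above 0.9 with Lyve1. For the other genes such neighbours were fewer. Prox1 had 3, led by Rgs11 (r = 0.97), Flt4 had 21, led by Tle3 (r = 0.96), Mmrn1 had 16, led by Lima1 (r = 0.97), and Reln had 6, led by Wnk1 (r = 0.93).

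Other genes of lymphatic growth and identity were taken from 4 lists, and 31 of them were analysed here. Between PNY and SHAM none was called, and their median difference was 0.05 against 0.00 for all probe sets. Among the ligands, Vegfc, which codes for the main growth factor of lymphatic endothelium, was above SHAM in PNY at each time point, by a mean of 0.30 ± 0.24 (SD of the 4 differences). Nts, a neuropeptide precursor that lymphatic endothelium makes, was also higher each time, by 0.39 ± 0.11, at a mean level of 4.58 under the median of all probe sets. In all, 7 of the 31 were above SHAM in PNY every time (Vegfc, Nts, Adamts3, Nrp2, Calcrl, Gja1 and Sema3a), beside 7.41% of all probe sets, and 3 were below it every time (Efnb2, Gata2 and Tbx1), beside 6.05%. This count has no lower limit of size. Nrp2 was at 8.45 in both surgeries at 1 day and at 8.62 in both at 7 days, and differed there only past the second decimal. Angpt2, a ligand of the receptor Tek, differed by -0.23, and Adamts3, a protease that processes VEGF-C, by 0.16.

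Among the receptors, Calcrl, which binds adrenomedullin, differed by 0.21 and Efnb2, a ligand of Ephb4 in valves, by -0.21, while Nrp2 and Kdr had 0.11 and 0.10. The transcription factors Tbx1 and Sox18, an inducer of Prox1, differed by -0.21 and -0.20, and Gata2 and Foxc2, which act in valves, by -0.14 and 0.14. Of the surface and junction genes the gap junction gene Gja1 differed by 0.28 and Pdpn, the podoplanin gene that alveolar type I cells also express strongly, by 0.25, with 0.13 for Sema3a and 0.08 for Thy1. Each of these had an adjusted p of 1. The mean for Thy1 hides a wide spread (SD of the 4 differences 0.70). Thy1 was at 9.35 in PNY at 1 day, the array that stood apart in thymocyte genes, and between 7.62 and 8.67 otherwise.

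At 6 hours, when Lyve1 was high, more of these genes were called lower than higher. Of the 31, 3 were called higher, 9 lower and 19 were not called, beside 2.87% higher and 4.53% lower among all probe sets. The median difference of the 31 was -0.26 against 0.03 for all probe sets. The shares here and for the lists below include probe sets of low level, while 28 of the 31 genes lay above the median level. Fitted alone, the probe sets above that level gave 4409 calls in either direction, against 3336 among all. In that fit 3 of these genes were higher and 11 lower. Of the 12 receptors 5 were lower and 1 higher, with a median of -0.37. Of the 7 ligands and processing genes 1 was higher and 1 lower, of the 6 transcription factors 1 and 1, and of the 6 surface and junction genes none was higher and 2 were lower.

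The genes that were lower at 6 hours include those that blood vessels share. Kdr, the main VEGF receptor of blood endothelium, was at 10.00 in PNY and 9.75 in SHAM at 6 hours and between 10.39 and 10.72 later, a difference of -0.69 (limma adjusted p = 0.00897). Angpt2 had -0.85, and Sema3a, a guidance factor of lymphatic valves, had -0.84. Tie1 and Tek, the angiopoietin receptor pair, had -0.66 and -0.45, Calcrl -0.63, Nrp2, a coreceptor of Flt4, -0.45, Sox18 -0.53 and the connexin gene Gja4 -0.75. The genes called higher were Ccbe1, which is needed for VEGF-C processing, with 0.70, the chemokine scavenger Ackr2 with 0.58, and Gata2, a valve transcription factor, with 0.51. Genes named here for 6 hours were picked after their values were seen. These counts depend on single arrays. Without the PNY array of 6 hours 0 genes were higher and 1 lower, and without the SHAM array 1 was higher and 0 lower. With both arrays of 3 days left out 0 were higher and 5 lower, and with both of 7 days left out 1 was higher and 4 lower.

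**Figure D3:**
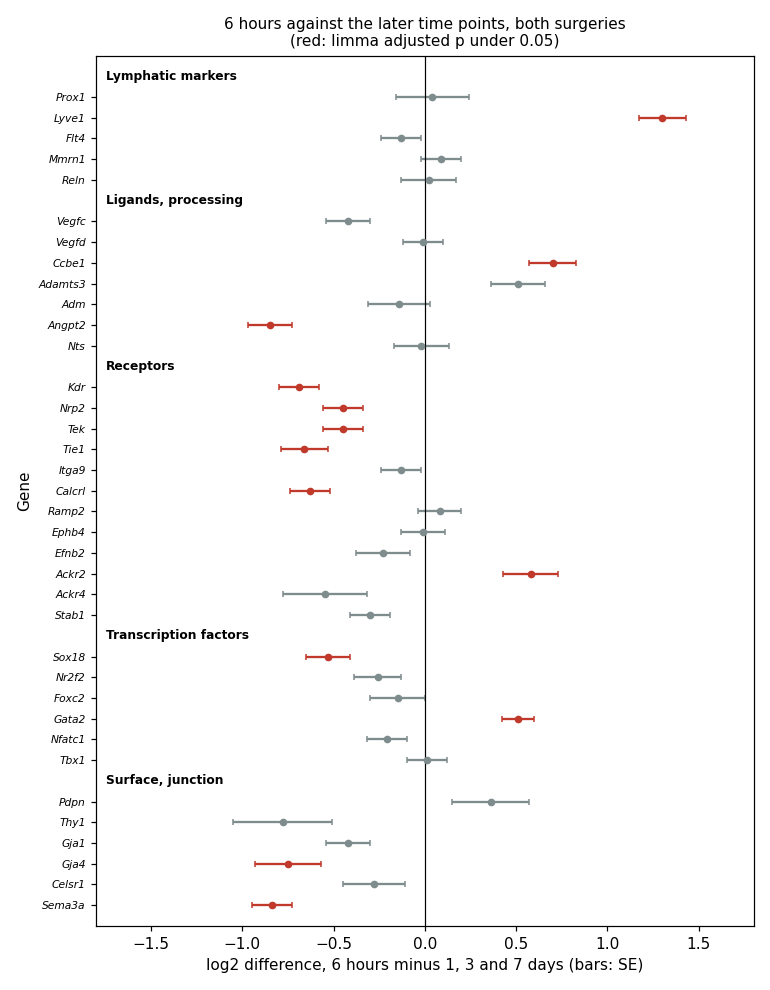
Log2 difference of the 6 hour arrays from those of 1, 3 and 7 days (horizontal axis) with its standard error, for the lymphatic markers and the 4 lists of other lymphatic genes (vertical axis). Red points have a limma adjusted p under 0.05. Lyve1 at 1.30 lies to the right of every other gene shown, and 9 of the 12 other red points are to the left of 0.

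Markers of cells that share Lyve1, Mmrn1 or Reln with lymphatic endothelium, or that a lung sample can hold, were read at 6 hours beside the Lyve1 step. Of 8 genes of tissue macrophages that carry Lyve1, Cd163, a scavenger receptor for hemoglobin, was called higher by 0.83 (limma adjusted p = 0.0376). It was at 7.74 in PNY and 7.31 in SHAM at 6 hours and between 6.32 and 6.95 later. Of the other 7, none of which was called, the mannose receptor gene Mrc1 differed by 0.33, F13a1 and Cbr2 by 0.17 each, Gas6 by 0.13, Timd4 by 0.07, Folr2 by -0.35 and Maf by -0.48. The median of the list was 0.15. The mean level of the 8 was 9.17 to 9.33 at 6 hours and 9.04 to 9.29 later, which overlap, and the part of these cells in the Lyve1 step was not tested. Cbr2 had a mean level of 14.19, beside 14.68 for Sftpc of lung epithelium, and which cells it came from was not tested. Of 12 genes of blood endothelium, 1 was higher (Gpihbp1, 0.52) and 1 lower (Emcn, -0.50), beside the 2.87% and 4.53% of all probe sets, and the mean level of 11.00 to 11.07 at 6 hours lay inside that of 10.99 to 11.22 later.

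No gene was called at 6 hours among 8 of megakaryocytes and platelets, which also hold Mmrn1, 6 of thymocytes, 9 of striated muscle, 4 of adipocytes or 7 of lung epithelium. Each of the 4 adipocyte genes had a 6 hour mean above its later mean. The difference was 0.95 for Fabp4, 0.66 for Cidec, 0.56 for Adipoq and 0.31 for Lep. The median was 0.61, with mean levels of 6.87 to 7.72 at 6 hours and 6.37 to 6.89 later. In PNY at 6 hours each gene lay above all later arrays, while in SHAM only Lep did. SHAM at 6 hours was at 6.89 for Adipoq (later range 6.23 to 7.72), 9.49 for Fabp4 (8.60 to 9.54) and 7.06 for Cidec (6.15 to 7.16). The part of adipocytes in the Lyve1 step was not tested. The platelet genes had mean levels of 7.29 to 7.44 at 6 hours and 6.79 to 7.52 later. Mesothelial genes were called lower for 2 of 6 (Lrrn4 by a difference of -1.91 and Muc16 by -1.54), beside 4.53% of all probe sets. Their mean levels were 7.84 to 8.33 at 6 hours and 8.78 to 9.47 later. Genes of B cells and lymph node stroma were called lower for 3 of 5, beside the same 4.53%. These were Cd79a (-1.31), Ms4a1 (-1.28) and Fcer2a (-1.26). Cr2 at -0.76 was not called, nor was Cxcl13, which went the other way with 1.08. The mean levels of the list were 7.32 to 7.38 at 6 hours and 7.53 to 8.44 later. The parts of these cells in the differences of Mmrn1 or of the other lymphatic genes were not tested. Between PNY and SHAM no gene of any of these lists was called. In the macrophage list Timd4 differed by -0.32 and Maf by 0.14. In that of blood endothelium Gpihbp1 differed by -0.29 and Vwf by 0.22, and in that of platelets Gp1bb by -0.34 and Ppbp by -0.29. At 7 days Gp1bb was at 4.98 in PNY and 6.12 in SHAM, and Ppbp at 7.84 and 8.97. At the other time points Gp1bb lay between 6.21 and 6.42 and Ppbp between 8.72 and 9.36. Mean differences were -0.36 for Cd79a and -0.11 for Ms4a1 of B cells, 0.19 for Msln and -0.04 for Upk3b of mesothelium, and 0.49 for Adipoq and 0.36 for Fabp4 of adipocytes. They were 1.41 for Rag1 and 0.59 for Dntt of thymocytes, and 0.19 for Myh6 and 0.18 for Myl4 of striated muscle. In lung epithelium they were 0.12 for Aqp5 and 0.07 for Ager. Myh6 and Myl4 were lowest in SHAM at 7 days, at 6.60 and 8.69, beside 7.52 to 8.22 and 9.46 to 9.88 elsewhere.

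**Figure D4:**
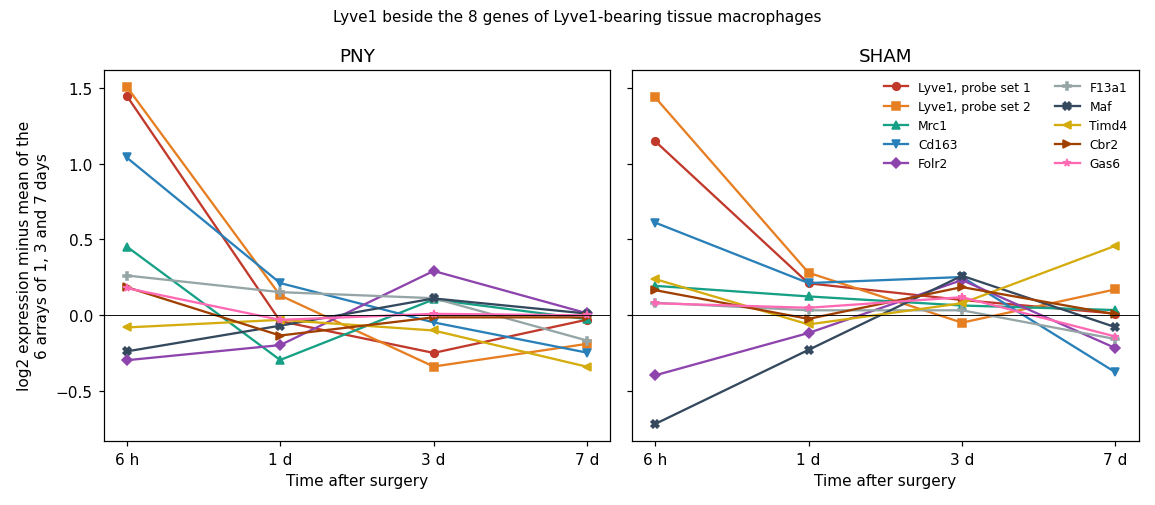
Log2 expression minus the mean of the 6 arrays of 1, 3 and 7 days (vertical axis) against time after surgery, for the 2 Lyve1 probe sets and all 8 genes of tissue macrophages that carry Lyve1, in PNY (left) and SHAM (right), with 1 point for each array. At 6 hours both Lyve1 probe sets and Cd163 stand highest in both surgeries, while Folr2 and Maf stand below 0.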

How the data were processed

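RNA of 8 pooled lung samples was measured on Affymetrix mouse genome arrays. The deposited values are on a log2 scale and were made by the authors in RMA (version not given in the sources used here), by background correction, quantile normalization and summarization. Quantile normalization removes differences in overall signal, and precision is limited by how few arrays there are. The table has 45101 probe sets, of which 64 are controls and were not used, and the other 45037 entered each fit with no filter. By the array annotation 34945 carry 1 gene symbol, 932 several and 9160 none.

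limma 3.58.1 in R 4.3.3 (lmFit, eBayes, Benjamini-Hochberg, adjusted p under 0.05) was fitted to all 8 arrays for PNY against SHAM with the time points as replicates, and, with surgery as a term, for 6 hours against later, for 3 and 7 days against earlier, and for the interaction of surgery with stage. It was tested on simulated data. Exact permutation tests were two-sided. Single time points have no test. The rank products of the study were not computed. The SD after a mean difference is that of the 4 time points. Tables and figures were made with Python 3.11.15, numpy 2.4.6, pandas 2.3.3 and matplotlib 3.10.9.

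The lymphatic genes and 13 other gene lists (4 of lymphatic genes, and blood endothelium, macrophages, platelets, mesothelium, B cells, thymocytes, striated muscle, adipocytes and lung epithelium) were chosen with earlier results of these data known, from general knowledge. Some listed genes are not reported here. Genes were named by a rule: all 5 lymphatic markers, the 4 genes of each lymphatic list and 2 of each other list with the largest mean PNY minus SHAM difference, and the 3 genes closest to each marker by Pearson's r. Other genes were named for their values.

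Deviations of PNY and SHAM from their group means correlated within a time point, with r of 0.605 (6 hours), 0.357 (1 day), 0.302 (3 days) and 0.295 (7 days). PNY at 7 days correlated more with SHAM at 3 days (r = 0.34). The data thus single out the pairing by time point at 6 hours and 1 day, but not at 3 and 7 days. A fit with time point as a block was run, beside other scalings, a filter on level, other probe sets and leaving out arrays or time points.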

Additional observations from a re-analysis of the deposited data

Results flagged for a closer look

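Of 10 groups of 4 arrays, 5 genes in each surgery, 2 held an array whose gap to its nearest neighbour took more of the group's range than Dixon's 95% critical value allows, where chance gives about 1 in 20. For Lyve1 in the PNY arrays the share was 0.868, and the array was that of 6 hours at 12.97. For Reln in the SHAM arrays it was 0.843, and the array was that of 1 day at 6.79, in a group that otherwise lay between 6.59 and 6.62. The arrays of a group differ in time point.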

How the results depend on the processing

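Lyve1 was called higher at 6 hours in every setting run, with differences of 1.30 to 1.48 under other scalings, filters, models and probe sets and of 1.04 to 1.56 without an array or time point (limma adjusted p 0.00187 to 0.043). No other lymphatic marker was called in any comparison or setting. Over 349 settings of single genes 302 kept their direction and call and 47 changed direction, none of them called, 28 of these without an array or time point.

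With the replicate block of time point, PNY against SHAM had 0 probe sets called (2484 at an unadjusted p under 0.05), Mmrn1 kept 0.20 (95% confidence interval 0.01 to 0.39 in place of -0.02 to 0.42, limma adjusted p = 0.901), and no call changed. The other probe sets gave, for PNY minus SHAM, 0.12 and 0.04 in Prox1 (0.04 for the mean of its probe sets). They gave -0.18 in Lyve1, -0.03 in Flt4, -0.05 in Mmrn1 and -0.07 in Reln. For 3 and 7 days against earlier they gave 0.21 in Prox1, -0.03 in Flt4, -0.07 in Mmrn1 and -0.00 in Reln, and for 6 hours against later -0.08 and -0.21 in Prox1 (mean -0.08), 0.03 in Flt4 and -0.04 in Reln (mean -0.01). Mmrn1 at 3 and 7 days against earlier was -0.04 with quantile normalization once more and -0.03 for the mean of its probe sets, and its change with stage was 0.00 with quantile normalization. The causes were not tested.

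Without 1 array or time point, PNY minus SHAM ran from -0.14 to 0.12 in Prox1, -0.47 to 0.18 in Lyve1 and -0.03 to 0.12 in Flt4. The later against earlier difference ran from -0.05 to 0.07 in Mmrn1 and -0.03 to 0.15 in Reln, and that of 6 hours from -0.05 to 0.22 in Prox1 and -0.08 to 0.12 in Reln. The change with stage ran from -0.97 to 0.52 in Lyve1, -0.06 to 0.29 in Flt4 and -0.22 to 0.06 in Mmrn1. Probe sets called ran from 0 to 1 for PNY against SHAM, 1 to 129 for 3 and 7 days (129 without PNY at 1 day, 1 to 3 without any other array), 266 to 4291 for 6 hours (3336 with all arrays, 266 without PNY and 335 without SHAM at 6 hours, 1901 without PNY at 3 days, 2114 without SHAM at 7 days, 1049 without both of 3 days and 1283 without both of 7 days) and 0 to 14 for the change with stage. The 20 probe sets called for 3 and 7 days became 10 with quantile normalization and 46 with a trended, robust prior. Other lymphatic genes called at 6 hours ran from 0 to 3 higher and 0 to 11 lower, and the 9 lower became 5 without 1 later array, PNY at 3 days or SHAM at 7 days. Prox1, under the median level, drops out where the filter is set. With 1 array for each surgery and time, a difference at a single time point has no error.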
